A study of Arabidopsis thaliana with 6 samples.

Results

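The 10 genes described here encode small heat shock proteins of Arabidopsis thaliana. They were followed in pollen carrying the paps1-3 allele and in wild-type pollen. They were taken by gene identifier, 10 of the 33602 genes in each count table, and not by a measured value. Earlier results of these data were known when they were taken. Their compartments are textbook assignments. HSP17.4, HSP17.6C and HSP18.2 are class I proteins of the cytosol, and HSP17.6A and HSP17.6II are class II proteins of the cytosol. HSP15.7 belongs to the peroxisome, HSP21 to the chloroplast, HSP22 to the endoplasmic reticulum, and HSP23.5 and HSP23.6 to the mitochondrion. Of the 10 genes, 8 had enough counts for the test across all genes. HSP21 and HSP15.7 did not.

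Both kinds of pollen came from plants of the Col accession with the genotype PAPS1 pLat52::RFP / paps1-3. In these plants a red fluorescent protein under the pollen promoter Lat52 is written beside the normal allele of PAPS1, and the paps1-3 allele stands on the other side. Flow sorting on the fluorescence gave paps1-3 pollen and wild-type pollen from the same kind of plant, with 3 libraries per genotype, lettered A to C. Values of single libraries are given in that order. Which fraction held the fluorescent grains is not stated; the way the genotype is written puts the fluorescence with the wild-type allele. The labels do not say that the letters stand for separate plants. The spread behind each p-value is that between libraries and may be technical. PAPS1 encodes a poly(A) polymerase of the nucleus, an enzyme that extends new messenger RNAs by a tail of adenosines.

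Small heat shock proteins are chaperones that work without ATP. They share an alpha-crystallin domain, assemble into oligomers and hold proteins that are unfolding, so that the ATP-driven chaperones HSP70 and HSP101 can refold them later. Heat shock factors switch their genes on by binding heat shock elements, which are inverted repeats of GAA and TTC close to the start of transcription. Some members are also transcribed without heat during development, and HSP17.4 in maturing seeds is a familiar case in Arabidopsis.

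The upstream sequences are shown because the 2 tested members that were not higher in paps1-3 pollen, HSP17.4 and HSP17.6C, carry elements of the same kind as members that were higher, counted over the 400 bases before the start codon. The first pair below gives the 250 bases before the annotated start of transcription, from the RefSeq annotation of TAIR10.1. HSP17.4 is on the minus strand at chr3:16984842-16985091 and HSP17.6C on the plus strand at chr1:19980049-19980298. Capitals mark 3-unit heat shock elements, here of the form GAANNTTCNNGAA.
HSP17.4: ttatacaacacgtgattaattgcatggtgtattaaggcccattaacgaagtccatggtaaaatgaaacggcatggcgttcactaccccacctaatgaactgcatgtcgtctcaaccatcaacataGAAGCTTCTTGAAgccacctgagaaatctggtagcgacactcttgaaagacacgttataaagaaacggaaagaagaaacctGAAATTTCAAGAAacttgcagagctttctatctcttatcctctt
HSP17.6C: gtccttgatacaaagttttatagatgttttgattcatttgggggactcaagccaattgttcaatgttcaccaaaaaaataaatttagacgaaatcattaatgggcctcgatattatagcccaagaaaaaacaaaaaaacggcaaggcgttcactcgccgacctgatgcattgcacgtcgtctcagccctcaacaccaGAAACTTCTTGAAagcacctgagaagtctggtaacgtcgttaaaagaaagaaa

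For members called higher, 30-base windows around the element farthest from the start codon are enough to see its form, and capitals again mark the element. HSP18.2 is on the plus strand at chr5:24062388-24062417 and HSP22 on the plus strand at chr4:6370379-6370408, both with a 3-unit element. The class II genes are on the minus strand, HSP17.6A at chr5:3884842-3884871 and HSP17.6II at chr5:3883035-3883064. The mitochondrial genes are on the plus strand, HSP23.5 at chr5:20891058-20891087 and HSP23.6 at chr4:12916928-12916957. These last 4 have a 2-unit element.
HSP18.2: caacaaacGAAACTTCCTGAAatgccaaga
HSP22: aaagatatTTCAAGAAACTTCttcattctt
HSP17.6A: gatcaagacgtTTCTCGAAcgttagagaag
HSP17.6II: gaccaagacgtTTCTCGAAcaatacggaag
HSP23.5: agaccacgcagTTCTAGAAccatccttaag
HSP23.6: ccacttctccaGAACATTCactcactgaca

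Total gene counts lay between 19861313 and 41176647 in the paps1-3 libraries, against 31909683 to 37685541 in the wild-type libraries. The paps1-3 C library was the smallest. Genes with a count above 0 numbered 30343, 27453 and 24587 in paps1-3, against 19668, 16869 and 18324 in wild type. Counts near 0 in wild type stand beside this difference, whose cause was not tested. PAPS1 (AT1G17980) itself had 18, 9 and 3 counts in paps1-3, against 32, 25 and 20 in wild type, and its log2 fold change was -2.61 ± 0.57 by TMM (adjusted p = 0.000273) and -1.36 ± 0.59 by totals (adjusted p = 0.0454). Genes were tested with libraries scaled by TMM, which takes most genes to be unchanged, and by library totals. Of the 14273 genes tested, 72.2% were called by TMM at an adjusted p below 0.05 in edgeR's quasi-likelihood test with Benjamini-Hochberg adjustment. By TMM 42.3% of tested genes were higher and 29.9% lower in paps1-3 pollen. The TMM factor of each paps1-3 library lay at 1.47 to 1.68, and that of each wild-type library at 0.613 to 0.673. Scaled by library totals alone, 70.2% of genes were higher and 9.72% lower, and the median log2 fold change of all genes was 1.62 instead of 0.37. Results of both scalings are therefore given. Levels below are in CPM, which here means counts divided by the library size after TMM scaling, unless totals are named.

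Markers of pollen were abundant in both groups, with unequal levels. The summed level of 5 vegetative pollen genes was 10337 to 12725 CPM in paps1-3 and 30106 to 33812 CPM in wild type, and 4 of the 5 were lower in paps1-3 by TMM. By totals 2 of the 5 were lower and 2 higher. The 5 sperm cell genes summed to 90.8 to 122 CPM in paps1-3 libraries and 318 to 367 CPM in wild-type libraries. All 4 of them that could be tested were lower by TMM, and 1 was lower by totals. The 6 leaf genes summed to 2.16 to 3.07 CPM in paps1-3 and 6.10 to 6.38 CPM in wild type. Most of that sum was RBCS3B, at 2.02 CPM in paps1-3 and 5.72 CPM in wild type. It was lower by TMM and not called by totals. CAB1 and GAPA also had lower mean CPM in paps1-3, while RBCS1A, RCA and LHB1B1 had higher means. RBCS1A had 25, 12 and 4 counts in paps1-3 and 0 in wild type. The 6 genes of the tapetum, the anther layer around developing pollen, summed to 0.919 to 4.56 CPM in paps1-3 and 0.181 to 0.346 CPM in wild type. Among those 6, A9 was at 0 in every library, and GRP17 had 179, 21 and 5 counts in paps1-3 against 3, 1 and 4 in wild type. Only LAP6 could be tested, and it was higher. It had 3, 2 and 3 counts in wild type and entered the test through the paps1-3 libraries. Mitochondrially encoded genes took 2.57% to 4.22% of counts in paps1-3 and 0.0340% to 0.0523% in wild type. The part of these differences in the values of the small heat shock protein genes was not tested. In bulk RNA, fewer cells of a type and less RNA per cell cannot be told apart.

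By TMM, 6 of the 8 tested small heat shock protein genes rose in paps1-3 pollen, 1 fell and 1 was not called, against 42.3% of all tested genes called higher and 29.9% called lower. By library totals the same 6 genes rose, against 70.2% of all genes. In edgeR by totals 0 fell, also at an unadjusted p below 0.05, against 9.72% of all genes, and no other tool was run on totals. The 6 were HSP18.2, both class II genes, HSP22 and both mitochondrial genes. HSP22 and the mitochondrial genes had fewer than 10 counts in each wild-type library. They entered the test through the paps1-3 libraries, where they were high, so a call of lower was hardly open to them. HSP18.2, with 9 counts in wild type B, also needed a paps1-3 library to pass the filter. The number called higher and the median of the 8 include these genes. HSP17.4 was the gene that fell by TMM, and HSP17.6C was not called under either scaling. The median log2 fold change of the 8 was 1.71 by TMM and 2.98 by totals, beside 0.37 and 1.62 for all tested genes. The libraries of the groups did not overlap in TMM-scaled CPM for 4 tested members that were higher and 1 that was lower, where 44% and 31.5% of all tested genes had that pattern. By totals, a majority of all genes was called higher too. The sizes of change differed by compartment, as the plot of levels by library shows.

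**Figure D1:**
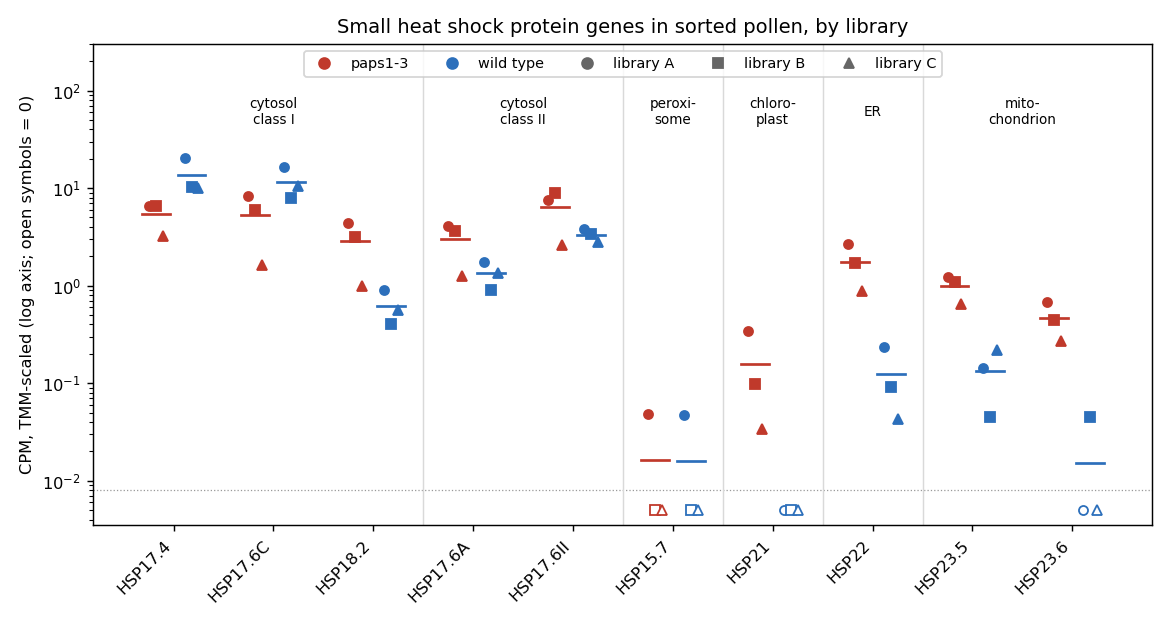
Level of each of the 10 genes in every library, as CPM on the TMM-scaled library size on a log axis, with paps1-3 in red left of wild type in blue, a symbol per library and a bar at the mean of 3. Open symbols below the dotted line stand for 0 counts. The class I genes HSP17.4 and HSP17.6C have their means at 5.46 and 5.29 CPM in paps1-3, below 13.5 and 11.5 CPM in wild type, while HSP18.2, the class II genes, HSP21, HSP22 and the mitochondrial genes have the higher mean in paps1-3 and HSP15.7 is near 0 in both.

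The class I genes of the cytosol divided. HSP17.4 (AT3G46230) had 407, 400 and 94 counts in paps1-3, against 429, 226 and 230 counts in wild type. That came to 6.61, 6.56 and 3.22 CPM in paps1-3 and 20.3, 10.3 and 9.96 CPM in wild type, so the groups did not overlap. Its log2 fold change by TMM was -1.28 ± 0.33 (SE, adjusted p = 0.00593), and 16.7% of all tested genes had a lower value. By library totals it was -0.03 ± 0.36 (adjusted p = 0.948) and the groups overlapped, so the call rests on the TMM scaling. Counts of HSP17.4 are uncertain because, in TAIR10.1, its exon shares 60 bases with the neighbouring gene AT3G46220 and 453 bases with the antisense RNA gene AT3G07365, and the libraries do not mark strand.

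HSP17.6C (AT1G53540), the closest relative of HSP17.4 among the members with 85.0% identical bases in the coding sequence, had 506, 367 and 48 counts in paps1-3. It had 346, 173 and 240 counts in wild type. On the CPM scale these were 8.22, 6.02 and 1.64 in paps1-3 and 16.4, 7.85 and 10.4 in wild type. The paps1-3 A library lay above wild type B, and paps1-3 C was far below all others. Its log2 fold change was -1.08 ± 0.63 by TMM (adjusted p = 0.188) and 0.19 ± 0.63 by totals (adjusted p = 0.795), so its direction changed with the scaling. Without paps1-3 C the change by TMM was -0.77 and passed the test (adjusted p = 0.00626). HSP17.4 and HSP17.6C were the members with the most counts in wild type, and for both the A library was the highest there.

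HSP18.2 (AT5G59720), whose promoter is widely used to drive heat-inducible transgenes, moved the other way. It had 270, 192 and 29 counts in paps1-3, against 19, 9 and 13 counts in wild type. Levels were 2.84 ± 1.72 CPM in paps1-3 and 0.623 ± 0.250 CPM in wild type (SD, n = 3 each), and the lowest paps1-3 library, C with 0.992 CPM, was above the highest wild-type library, A with 0.898 CPM. The log2 fold change was 2.22 ± 0.46 by TMM (adjusted p = 0.000411) and 3.49 ± 0.53 by totals (adjusted p = 6.25e-05). Its coding sequence shared 77.0% of bases with HSP17.4 and 77.8% with HSP17.6C. No other stretch of the genome matched any of these 3 genes at 95% identity or more over the read length of 99 bases.

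The class II genes of the cytosol both rose. HSP17.6A (AT5G12030) had 253, 220 and 37 counts in paps1-3, against 37, 20 and 31 counts in wild type. Its level was 2.99 ± 1.52 CPM in paps1-3 and 1.33 ± 0.42 CPM in wild type. The log2 fold change was 1.20 ± 0.36 by TMM (adjusted p = 0.00606) and 2.46 ± 0.42 by totals (adjusted p = 8.03e-05). The groups overlapped by TMM, since paps1-3 C lay below wild type A and C, and did not overlap by totals. Without wild type B the TMM change was 0.91 and missed the threshold (adjusted p = 0.0589).

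HSP17.6II (AT5G12020) had 470, 547 and 77 counts in paps1-3, against 80, 75 and 64 counts in wild type. At 6.41 ± 3.34 CPM in paps1-3 and 3.32 ± 0.51 CPM in wild type, it was the member with the highest mean CPM in paps1-3. The log2 fold change was 0.98 ± 0.36 by TMM (adjusted p = 0.0305) and 2.23 ± 0.41 by totals (adjusted p = 0.000685). Under TMM paps1-3 C was below every wild-type library, and leaving out any 1 library other than paps1-3 C ended the call, with adjusted p between 0.0772 and 0.126. The class II genes lie next to each other on chromosome 5, both on the minus strand with 845 bases and 0 genes between them, and 86.1% of their coding bases are identical. In both groups HSP17.6II had the higher counts of the pair in every library.

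HSP22 (AT4G10250), the member of the endoplasmic reticulum, had 165, 104 and 26 counts in paps1-3, against 5, 2 and 1 counts in wild type. Every paps1-3 library was above every wild-type library, with 1.76 ± 0.90 CPM in paps1-3 and 0.123 ± 0.101 CPM in wild type. The log2 fold change was 3.84 ± 0.57 by TMM (adjusted p = 2.51e-06) and 5.09 ± 0.60 by totals (adjusted p = 1.05e-06). By TMM 91.6% of all tested genes had a lower value. No member of the other compartments had a smaller adjusted p by TMM.

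The mitochondrial genes, with few counts in wild type, both rose. HSP23.5 (AT5G51440) had 76, 66 and 19 counts in paps1-3, against 3, 1 and 5 counts in wild type. Its log2 fold change was 2.86 ± 0.61 by TMM (adjusted p = 0.000245) and 4.10 ± 0.61 by totals (adjusted p = 1.32e-05), and the groups did not overlap. HSP23.6 (AT4G25200) had 42, 27 and 8 counts in paps1-3, against 0, 1 and 0 counts in wild type. With 77 counts in paps1-3 and 1 in wild type, the ratio of rates was 33.7 by TMM, with an exact 95% interval of 5.86 to 1346 that covers counting error only. It was called higher by TMM (adjusted p = 0.000192) and by totals (adjusted p = 3.11e-05). Another stretch of the genome matched HSP23.6 at 96.8% identity over at least a read length, so its counts are less certain than those of HSP23.5.

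HSP21 (AT4G27670), the chloroplast member, had 21, 6 and 1 counts in paps1-3 and 0 counts in each wild-type library. It was not tested, having too few counts. The 28 counts in paps1-3 were set against a floor of 3 counts over the 3 wild-type libraries together. Over that floor they were 4.08-fold higher by TMM and 9.77-fold higher by totals. The exact 95% lower limits of the ratio of rates, for counting error only, were 3.10 by TMM and 7.44 by totals. Of those 28 counts 21 came from the A library, which also had the highest tapetum sum, mostly from GRP17. That library had the most genes with a count above 0 too. A link to either was not tested. HSP15.7 (AT5G37670), the peroxisomal member, had 3, 0 and 0 counts in paps1-3 and 1, 0 and 0 counts in wild type. A difference was not detectable at this depth.

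**Figure D2:**
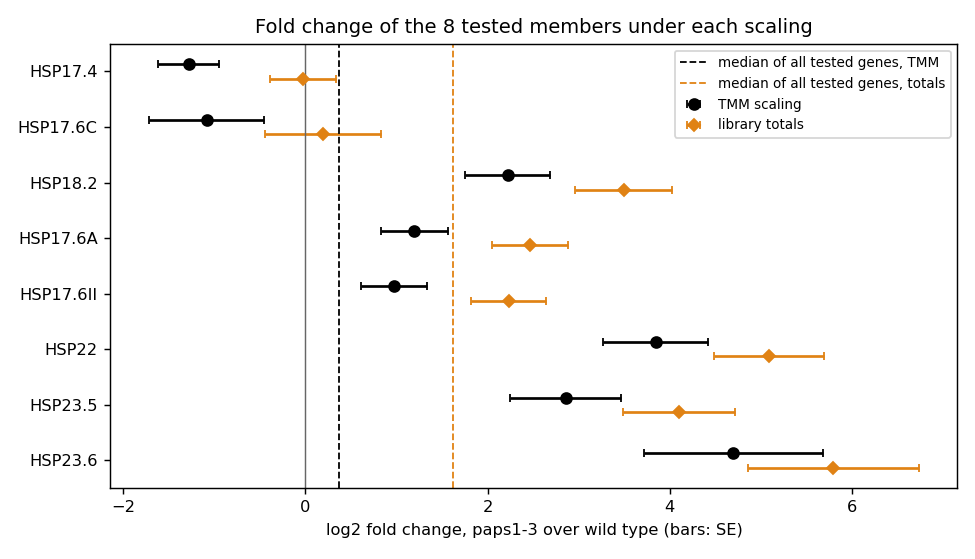
Log2 fold change of the 8 tested genes, paps1-3 over wild type, with SE bars, by TMM in black and by library totals in orange. Dashed lines mark the medians of all tested genes, 0.37 and 1.62, and HSP17.4 and HSP17.6C are to the left of the median of their own scaling while the other 6 are to the right of it.

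The plot of fold changes shows that a change of scaling moved all 8 genes by about the same amount and left their order unchanged. Relative to the median of all genes by TMM, the log2 difference was -1.65 for HSP17.4 and -1.46 for HSP17.6C. It was 0.60 for HSP17.6II, 0.82 for HSP17.6A and 1.85 for HSP18.2. HSP23.5 stood 2.48 and HSP22 3.47 above that median. Among the 3 class I members, HSP18.2 was thus on one side of the median of all genes and its relatives were on the other.

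Summed by compartment over the members, the 3 class I members held 13.6 ± 6.93 CPM in paps1-3 and 25.6 ± 10.4 CPM in wild type. Their log2 ratio of means was -0.92 by TMM and turned to 0.35 by totals. This sum leaves out HSP17.6B, HSP17.8 and HSP17.6A-CI, further class I genes described below. They stood at 9.72, 1.71 and 1.59 CPM in paps1-3 and 9.98, 0.853 and 1.68 CPM in wild type. Class II held 9.41 ± 4.79 CPM in paps1-3 and 4.65 ± 0.77 CPM in wild type, with log2 ratios of 1.02 by TMM and 2.28 by totals. The mitochondrial pair summed to 1.46 ± 0.50 CPM in paps1-3 and 0.150 ± 0.063 CPM in wild type, with log2 ratios of 3.28 and 4.57. These sums are descriptions with no test.

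The share each compartment took of the counts of all 10 genes needs no scaling between libraries. Class I took 53.5%, 49.7% and 50.4% in paps1-3, against 86.3%, 80.5% and 82.7% in wild type. Class II took 32.7%, 39.8% and 33.6% in paps1-3, against 12.7%, 18.7% and 16.3% in wild type. HSP22 alone took 7.46%, 5.39% and 7.67% in paps1-3, against 0.543%, 0.394% and 0.171% in wild type. For class I every paps1-3 library was below every wild-type library, and for class II and HSP22 every one was above. The mitochondrial pair took 5.33%, 4.82% and 7.96% in paps1-3, against 0.326%, 0.394% and 0.856% in wild type. HSP21 took at most 0.949% in paps1-3 and 0 in wild type, and HSP15.7 at most 0.136% in paps1-3 and 0.109% in wild type.

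**Figure D3:**
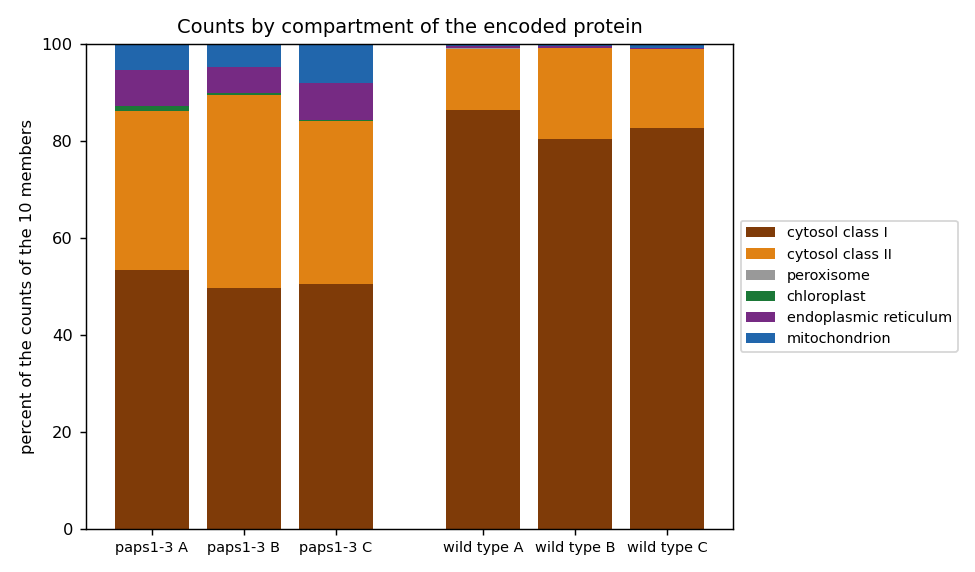
Percent of the counts of the 10 genes by compartment of the encoded protein, for each of the 3 paps1-3 and 3 wild-type libraries. Class I takes 49.7% to 53.5% of the bar in paps1-3 and 80.5% to 86.3% in wild type, and the reticulum and mitochondrial bands are barely visible in wild type.

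Counts of each gene per count of HSP17.4 in the same library likewise do not depend on the scaling. This ratio was chosen after the values were seen and is given as a description. HSP18.2 had 0.663, 0.480 and 0.309 counts per count of HSP17.4 in paps1-3, against 0.0443, 0.0398 and 0.0565 in wild type. HSP17.6II had 1.15, 1.37 and 0.819 in paps1-3, against 0.186, 0.332 and 0.278 in wild type. HSP22 had 0.405, 0.260 and 0.277 in paps1-3, against 0.0117, 0.00885 and 0.00435 in wild type. For these genes the groups were far apart, and in paps1-3 A and B HSP17.6II had more counts than HSP17.4. HSP17.6C had 1.24, 0.918 and 0.511 in paps1-3 and 0.807, 0.765 and 1.04 in wild type, where the groups overlapped.

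**Figure D4:**
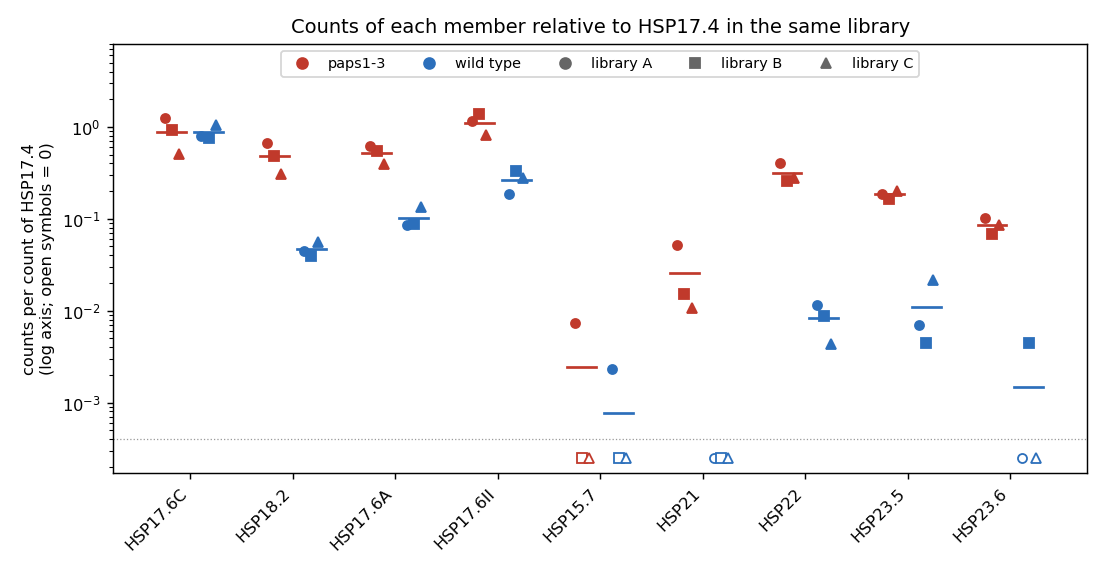
Counts of each of the other 9 genes per count of HSP17.4 in the same library, on a log axis, with paps1-3 in red left of wild type in blue and bars at the means of 3 libraries; open symbols below the dotted line stand for 0. HSP17.6C overlaps between the groups at 0.511 to 1.24 in paps1-3 libraries and 0.765 to 1.04 in wild-type libraries, and HSP18.2 does not, at 0.309 to 0.663 in paps1-3 libraries and 0.0398 to 0.0565 in wild-type libraries.

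Per length of transcript, HSP17.4 and HSP17.6C stood above all other members in wild type, while in paps1-3 HSP17.6II lay within their spread. In paps1-3 the highest levels among the members were 7.55 ± 2.69 RPKM for HSP17.4, 7.28 ± 3.79 for HSP17.6II and 5.88 ± 3.72 for HSP17.6C. These lay within the spread of each other. HSP17.6A at 3.40 ± 1.72 RPKM and HSP18.2 at 2.91 ± 1.76 RPKM followed, also within their spread, then HSP22 at 1.70 ± 0.87 and HSP23.5 at 0.887 ± 0.272 RPKM. In wild type HSP17.4 at 18.6 ± 8.11 RPKM and HSP17.6C at 12.8 ± 4.84 RPKM were within the spread of each other. HSP17.6II came next with 3.77 ± 0.58 RPKM, then HSP17.6A with 1.51 ± 0.48 RPKM and HSP18.2 with 0.637 ± 0.256 RPKM. HSP22 and HSP23.5 were near the bottom in wild type, at 0.119 ± 0.097 and 0.121 ± 0.077 RPKM.

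The members varied together among the libraries of a group. Among the paps1-3 libraries, C had the lowest CPM for 9 of the 10 genes, and among wild-type libraries A had the highest for 7. Their values in a library are therefore not independent of each other. Without paps1-3 C, 6 members were called higher and 2 lower. Without any 1 of the other libraries, 4 or 5 were higher and 1 lower. HSP18.2, HSP22, HSP23.5 and HSP23.6 were called higher each time, and HSP17.4 lower each time, by TMM.

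What the members' upstream sequences share was looked at with 2-unit elements, GAANNTTC and TTCNNGAA, each of which reads the same on both strands, and with the 3-unit elements GAANNTTCNNGAA and TTCNNGAANNTTC, which contain the 2-unit ones. In the 400 bases before the start codon, all members except HSP15.7 held an element, where 28.6% of 27443 genes held a 2-unit one. HSP17.4, HSP17.6C, HSP18.2 and HSP22 held a 3-unit element, where 0.955% of genes did. HSP17.4 had 2 of them, which begin 233 and 152 bases before the start codon. HSP17.6C had 1 at 264 bases, HSP18.2 had 1 at 236 bases and HSP22 had 1 at 150 bases. Those of HSP18.2 and HSP22 lie inside the annotated 5' untranslated region, and those of HSP17.4 and HSP17.6C lie outside it. The picture differs in the 250 bases before the annotated start of transcription, where 16.2% of 27443 genes held a 2-unit element and 0.39% a 3-unit one. There, HSP17.4 and HSP17.6C were the members with a 3-unit element. HSP15.7, HSP17.6A, HSP21 and HSP23.5 held a 2-unit element there, and HSP18.2, HSP17.6II, HSP22 and HSP23.6 held none.

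**Figure D5:**
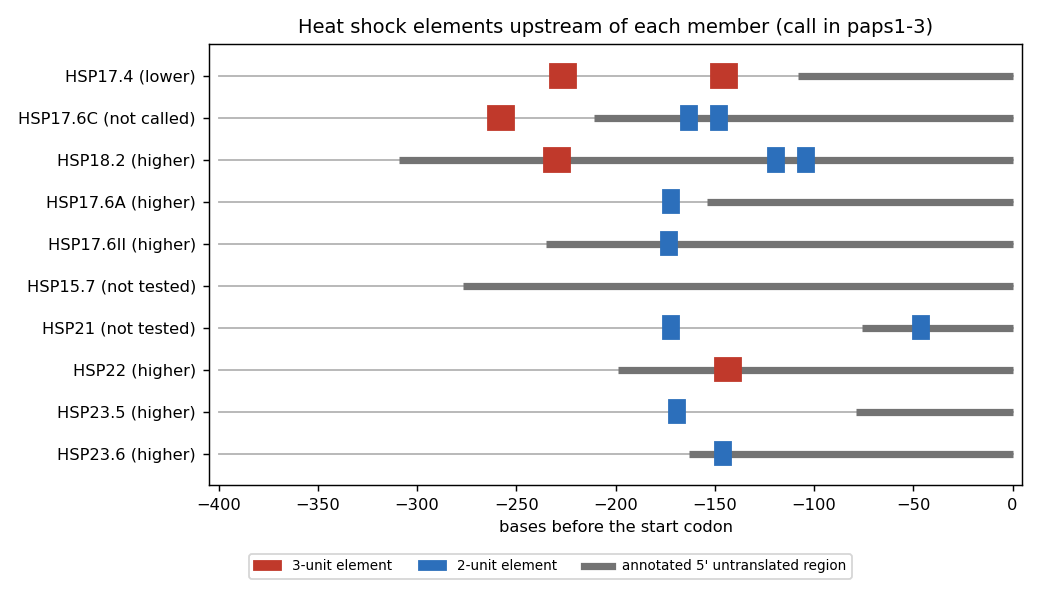
Position of heat shock elements in the 400 bases before the start codon of each gene, with 3-unit elements in red, 2-unit elements in blue and the annotated 5' untranslated region as a thick grey line; the call by TMM in paps1-3 stands beside each name. HSP17.4 (lower), HSP17.6C (not called), HSP18.2 (higher) and HSP22 (higher) have a 3-unit element, and HSP15.7 has no element in this window.

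Close relatives also shared longer stretches before the start codon. HSP17.4 and HSP17.6C aligned over 304 columns with 67.1% identity, whereas HSP17.4 and HSP18.2 aligned over 38 columns. The class II genes aligned over 191 columns with 73.8% identity, and their elements begin 176 and 177 bases before the start codon. A match of letters is a description and does not show that a factor binds there. HSP21, HSP23.5 and HSP23.6 have 1 intron each, and the other 7 members have none.

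Of 10 further small heat shock protein genes, 8 were tested, of which 4 rose, 1 fell and 3 were not called by TMM. By totals 6 rose and 1 fell. The shares of all tested genes were 42.3% higher and 29.9% lower by TMM, and 70.2% higher and 9.72% lower by totals. The median log2 fold change of the 8 was 0.51 by TMM, beside 0.37 for all tested genes. HSP15.4 (AT4G21870) had 40, 40 and 16 counts in paps1-3 and 0 in wild type. That was 14.0-fold higher by TMM over a floor of 3 counts for the group, with an exact 95% lower limit of 11.2 for counting error. HSP26.5 (AT1G52560) had 103, 79 and 9 counts in paps1-3, against 1, 3 and 0 in wild type, with a log2 fold change of 4.13 ± 0.79 by TMM. HSP14.7 (AT5G47600) had 33, 49 and 26 counts in paps1-3, against 0, 0 and 3 in wild type, a ratio of rates of 15.73 with an exact 95% interval of 5.24 to 77.5 for counting error. HSP15.4, HSP26.5 and HSP14.7 had fewer than 10 counts in each wild-type library and entered the test through the paps1-3 libraries. ACD32.1 (AT1G06460), a peroxisomal protein with an alpha-crystallin domain, fell by 2.37 ± 0.20 on the log2 scale by TMM and was lower by totals too. It had 119, 112 and 73 counts in paps1-3, against 245, 223 and 238 in wild type.

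The list held further class I genes, which were named after their values were seen. HSP17.6B (AT2G29500) had 828, 671 and 137 counts in paps1-3, against 287, 192 and 177 in wild type. Its log2 fold change was -0.02 ± 0.39 by TMM (adjusted p = 0.971) and 1.25 by totals (adjusted p = 0.0338). HSP17.8 (AT1G07400) had 153, 103 and 28 counts in paps1-3, against 22, 23 and 11 in wild type, and rose by 1.03 ± 0.39 by TMM (adjusted p = 0.0226). That call was lost without paps1-3 A (adjusted p = 0.127) and without wild type C (adjusted p = 0.159). HSP17.6A-CI (AT1G59860) had 173, 64 and 27 counts in paps1-3, against 46, 19 and 46 in wild type. Its log2 fold change was -0.04 ± 0.41 by TMM (adjusted p = 0.931) and 1.25 by totals (adjusted p = 0.0253).

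Of 21 heat shock factor genes, the regulators that bind heat shock elements, 10 were tested. By TMM 2 rose, 4 fell and 4 were not called, and by totals 6 rose. In edgeR by totals 0 fell, also at an unadjusted p below 0.05. The shares of all tested genes were 42.3% higher and 29.9% lower by TMM, and 70.2% higher and 9.72% lower by totals. The median of the 10 was -0.13 by TMM, beside 0.37 for all tested genes. HSFA4C (AT5G45710) fell by 1.41 ± 0.13, HSFA5 (AT4G13980) by 0.98 ± 0.13 and HSFA1A (AT4G17750), one of the master regulators of the heat response, by 0.94 ± 0.19 on the log2 scale by TMM. By totals none of these 3 was called, and HSFA5 at 0.28 and HSFA1A at 0.31 had the opposite sign. HSFA6B (AT3G22830) had 64, 12 and 10 counts in paps1-3, against 1, 1 and 0 in wild type, a ratio of rates of 18.8 with an exact 95% interval of 5.05 to 158 for counting error. HSFA2 (AT2G26150), the heat-induced factor that prolongs the response, was named after its values were seen. It had 84, 38 and 21 counts in paps1-3, against 9, 2 and 4 in wild type, and rose by 1.98 ± 0.60 by TMM (adjusted p = 0.00543), a call lost without wild type B (adjusted p = 0.0519). HSFA6B and HSFA2 had fewer than 10 counts in each wild-type library and entered the test through the paps1-3 libraries.

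The partner chaperones, ATP-driven apart from the DNAJ homologues ATJ2 (AT5G22060) and ATJ3 (AT3G44110), were all tested. Of 19 genes, 14 rose, 4 fell and 1 was not called by TMM, and 18 rose by totals. Of all tested genes 42.3% were higher and 29.9% lower by TMM, and 70.2% were higher by totals. Those that fell by TMM include ATJ2 (-1.32) and ATJ3 (-0.53). By totals ATJ2 was not called (-0.08, adjusted p = 0.620) and ATJ3 was higher (0.71, adjusted p = 1.90e-05). The median of the 19 was 0.98 by TMM, beside 0.37 for all tested genes. MTHSC70-2 (AT5G09590), a mitochondrial HSP70, had 9090, 11746 and 4818 counts in paps1-3, against 182, 217 and 208 in wild type, and rose by 4.20 ± 0.15 by TMM (adjusted p = 5.79e-17). HSP60 (AT3G23990), the mitochondrial chaperonin, had 205, 151 and 69 counts in paps1-3, against 4, 1 and 7 in wild type, and rose by 3.89 ± 0.44 by TMM. With such counts in wild type, HSP60 entered the test through the paps1-3 libraries. Named for their low counts, CLPB4 (AT2G25140), CPHSC70-1 (AT4G24280) and CPHSC70-2 (AT5G49910) rose and also needed paps1-3 libraries to pass the filter. In wild type CLPB4 had 1, 4 and 6 counts, CPHSC70-1 had 25, 8 and 9, and CPHSC70-2 had 21, 8 and 18. The number that rose includes these genes. In the cytosol HSC70-1 (AT5G02500) rose by 3.37 ± 0.20 and HSP70-3 (AT3G09440) by 2.93 ± 0.20 by TMM. The other cytosolic HSP70 genes, named after their values were seen, were not called higher by TMM. HSP70-2 (AT5G02490) fell by 0.74 ± 0.18 by TMM (adjusted p = 0.000791) and was higher by totals (0.51, adjusted p = 0.0418). HSP70-4 (AT3G12580) fell by 0.50 ± 0.16 by TMM (adjusted p = 0.00647) and was higher by totals (0.75, adjusted p = 0.00183). HSP70-5 (AT1G16030) was not called by TMM (0.13 ± 0.45, adjusted p = 0.812) and was higher by totals (1.39, adjusted p = 0.0477). Cytosolic HSP70 genes resemble each other, and reads placed at several positions were not counted to a gene, so their counts are less certain.

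Of 12 other genes of the heat response, 11 were tested. By TMM 2 rose, 5 fell and 4 were not called, and by totals 6 rose and 2 fell. For all tested genes the shares were 42.3% higher and 29.9% lower by TMM, and 70.2% and 9.72% by totals. The median of the 11 was 0.22 by TMM, beside 0.37 for all tested genes. ROF1 (AT3G25230), a peptidyl-prolyl isomerase that binds HSP90, had 571, 416 and 189 counts in paps1-3, against 1070, 903 and 872 in wild type, and fell by 2.51 ± 0.17 on the log2 scale by TMM. Its relative ROF2 (AT5G48570) fell by 2.16 ± 0.34 by TMM and was not called by totals (-0.89, adjusted p = 0.0738). By TMM FES1A (AT3G09350), a partner of cytosolic HSP70, fell by 2.25 ± 0.31. DREB2B (AT3G11020), a stress transcription factor, fell by 1.25 ± 0.18 by TMM and stood at 0.02 by totals. MBF1C (AT3G24500) rose by 0.72 ± 0.29 (adjusted p = 0.0358) and GOLS1 (AT2G47180), an early enzyme of raffinose sugar synthesis, by 2.03 ± 0.65 (adjusted p = 0.00752). Both were named after their values were seen. GOLS1 had 2, 3 and 4 counts in wild type and entered the test through the paps1-3 libraries. MBF1C lost its call when any 1 library other than paps1-3 C was left out, with adjusted p between 0.0907 and 0.233, and GOLS1 lost it without wild type A (adjusted p = 0.0641) or wild type B (adjusted p = 0.0527). In TAIR10.1 ACD32.1, HSP70-3, FES1A, DREB2B, MBF1C and GOLS1 overlap other genes, which makes their counts uncertain.

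The genes with the profiles most like those of HSP17.4 and HSP17.6C, the 2 tested members with the highest mean CPM over the 6 libraries, were found as the smallest root mean square difference of log2(CPM + 0.5), each profile centred on its own mean over the 6 libraries. For HSP17.4 they were CYCA2;1 (AT5G25380), a cyclin, at 0.162, AT4G38760, annotated as a nucleoporin, at 0.165 and FIS2 (AT2G35670), a polycomb protein, at 0.187. For HSP17.6C they were AT4G05550 at 0.284, AT2G32630 at 0.334 and AT3G07280 at 0.338. Over 6 libraries in 2 groups this likeness includes the difference between the groups.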

How the data were processed

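RNA of sorted pollen was amplified with the Ovation RNA-seq system v2 without keeping strand, and 101 and 99 bases were read from the ends of each fragment, per the labels' protocols. The authors deposited raw counts for each gene. TopHat2 and HTSeq on TAIR10 made them, per the submitters' processing notes. The sources used here give no versions, options or annotation. Categories that name no gene, among them reads placed at several positions (7.90% to 11.6% in paps1-3 libraries and 5.30% to 6.14% in wild-type ones), took 11.8% to 15.3% of entries in paps1-3 libraries and 8.84% to 9.72% in wild-type ones, and were left out.

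Counts were tested with edgeR 4.0.16 in R 4.3.3 (quasi-likelihood test with robust estimation, TMM, genotype as the only term, filterByExpr with a minimum count of 10 and a minimum total of 15), with Benjamini-Hochberg adjustment over all 14273 genes and a threshold of 0.05. Tests are two-sided. SE is the absolute log2 fold change over the root of F. RPKM used exon lengths of TAIR10.1. Alternatives were library totals, DESeq2 1.42.0, other filters, organelle genes left out, the letter as a block and each library left out. The count tables hold no coordinates, so gene positions, names (32835 of 33602 identifiers matched) and sequences come from RefSeq's TAIR10.1.

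The members and lists were chosen with earlier results of these data known. All members were named. In each list up to 4 called genes with the smallest p were named, and others are marked in the text. Same-letter libraries had correlated deviations of 0.263 for A, 0.0822 for B and 0.0935 for C, and those of unlike letters lay between -0.172 and 0.104. A pairing is thus not excluded. The labels do not state one, so letters were not taken as pairs in the main fit and the block is an alternative.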

Additional observations from a re-analysis of the deposited data

How the results depend on the processing

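By library totals 10018 of all genes were called higher and 1387 lower, which is 70.2% and 9.72% of those tested, against 42.3% and 29.9% by TMM. Of the genes of the 4 heat lists 36 were higher and 3 lower by totals, against 22 and 14 by TMM. Members called lower numbered 0 by totals, 2 with no filter, 2 with a replicate block by letter and 1 to 2 when 1 library was left out. Members called higher were 6 by totals, by DESeq2, with organelle genes left out and with the replicate block, the same 6 each time, 7 without a filter, where HSP21 was added, and 4 at 1 CPM in 3 libraries, where the mitochondrial genes were not tested. Under the block HSP17.6C was also called lower (-1.22, adjusted p = 4.04e-05), as it was without a filter (-1.20, adjusted p = 0.0220). The labels do not say whether the letters pair libraries, and not every library correlated best with its own letter. The summed log2 ratios of the members by totals were 0.35 for class I, 2.28 for class II and 4.57 for the mitochondrial pair. Signs turned by totals for HSP17.6C (0.19), HSP17.6B (1.25), HSP17.6A-CI (1.25), HSFA1A (0.31), HSFA5 (0.28), HSP70-2 (0.51), HSP70-4 (0.75), ATJ3 (0.71) and DREB2B (0.015). HSP17.6B also turned at 1 CPM in 3 libraries (0.14) and without organelle genes (0.014), and ranged from -0.29 to 0.22 when 1 library was left out, as HSP70-5 did from -0.16 to 0.48. The cause was not tested. Of 94 values of single members under alternatives, 83 kept direction and side of the threshold. Depth limits HSP15.7 and HSP21 most, and the smallest library, paps1-3 C, carries the fewest counts.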
